A study of Mus musculus with 20 samples.

Results

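The nuclear-encoded subunits of the mitochondrial respiratory chain and ATP synthase were followed in tumors and tumor cells that lack or keep cathepsin D (CTSD, gene Ctsd), an aspartic protease of the lysosome. Members were the protein-coding mouse genes whose symbols follow the naming of subunits of complexes I to V (Nduf, Sdh, Uqcr, Cox and Atp5 genes). A symbol of this form does not show that the product of each member is a subunit. Of the 45706 genes in the count files, 84 met this rule. They comprised 37 genes of complex I, 4 of complex II, 8 of complex III, 18 of complex IV and 17 of complex V. The rule goes by symbol, so that it leaves out the complex I subunit Ndufab1 and the complex III subunit Cyc1, and it places Ndufa4 with complex I although its protein is found in complex IV.

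Oxidative phosphorylation passes electrons from NADH through complex I, or from succinate through complex II, to ubiquinone and on through complex III and cytochrome c to complex IV, where oxygen is reduced. Complexes I, III and IV pump protons across the inner mitochondrial membrane, and complex V, the ATP synthase, lets them flow back to make ATP. Most subunits are encoded in the nucleus, while the mitochondrial genome encodes a small set that sits in the membrane cores of complexes I, III, IV and V. Mitochondria are also cargo of autophagy, which ends in the lysosome where CTSD works.

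All samples came from mice carrying the MMTV-PyMT oncogene, which drives mammary carcinoma. The tumors were taken at 18 weeks of age from 4 control mice, labelled wild type, and from 4 mice in which MMTV-cre deletes Ctsd. Because the MMTV promoter confines cre to the mammary epithelium, stromal cells of these tumors keep Ctsd. The cells were 1 spontaneously immortalized line per genotype, Ctsd+/+ and Ctsd-/-, grown in medium with 1% fetal calf serum (FCS) for 10 days (1% FCS) or for 12 weeks (1% FCS LT). Each of these 4 groups has 3 replicates. Replicates of a cell group share a line, so that their p-values measure the spread between cultures or preparations, and a difference between genotypes cannot be told apart from one between 2 lines.

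Counts on genes ranged from 49725437 to 64291587 per tumor and from 33622831 to 40239762 per cell sample. Levels are given in CPM, the count of a gene scaled to a common library total after correction by TMM, an edgeR factor for differences in library makeup. Ctsd itself lay between 1781 and 2617 CPM in control tumors and between 360.2 and 1295 CPM in Ctsd-deficient tumors. In cells it lay between 1266 and 4199 CPM in the 6 Ctsd+/+ samples and between 114 and 192 CPM in the 6 Ctsd-/- samples, so that the libraries matched their labels. Epithelial markers were detected in every group, but the 3 Ctsd+/+ samples in 1% FCS stood apart. Their summed level of 6 luminal epithelial markers was 699 to 1509 CPM, against 3947 to 9690 CPM in the other cell groups. Their summed level of 5 fibroblast markers was 625 to 2613 CPM, against at most 14.6 CPM elsewhere in culture. The 3 comparisons that use these samples are the genotype difference in 1% FCS, the long-term difference of Ctsd+/+ cells and the interaction. The part of these marker differences in their results was not tested.

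Members are short genes, with a median exon length of 1522.5 nt against 4496 nt over 13009 protein-coding genes above 1 CPM. All 84 were accounted for. In tumors 82 passed the filter on low counts and 2 did not (Cox7b2 and Cox8c, isoforms known from testis). In cells 77 passed, and Ndufa4l2, Cox4i2, Cox6a2, Cox6b2 and Cox8b also fell out. Reads of 7 members could be shared with named pseudogenes, Uqcrh and Atp5c1 among them, and the exons of 25 members overlap a gene on the other strand. The latter touches the tumor values, which were counted regardless of strand. Cox5a, a matrix-side subunit of complex IV, is such a case, with 12.9 to 30.2 CPM in tumors and 75.8 to 112 CPM in cells.

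Together the members took 1.89% to 3.01% of the counts of a tumor and 0.652% to 0.84% of those of a cell sample. Summed levels were 24683 ± 9452 CPM in control tumors and 20847 ± 2204 CPM in Ctsd-deficient tumors (SD, n = 4). In cells they were 7654 ± 643 CPM in Ctsd+/+ and 7756 ± 467 CPM in Ctsd-/- cells in 1% FCS, and 8092 ± 522 and 7579 ± 148 CPM in 1% FCS LT (SD, n = 3). The sum over all members therefore differed between the 4 cell groups by no more than the spread between their replicates. Single complexes did not all follow. In 1% FCS LT the sum of complex IV was 1495 ± 75 CPM in Ctsd+/+ and 1336 ± 6.4 CPM in Ctsd-/- cells. That of complex III was 760 ± 31 and 689 ± 17 CPM, and neither overlapped. In 1% FCS complex II had 498 ± 14 and 454 ± 28 CPM without overlap. Other complex sums overlapped between genotypes in culture, and no sum was tested. Tumor and cell libraries were prepared and counted differently, and the gap between them was not tested.

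**Figure D1:**
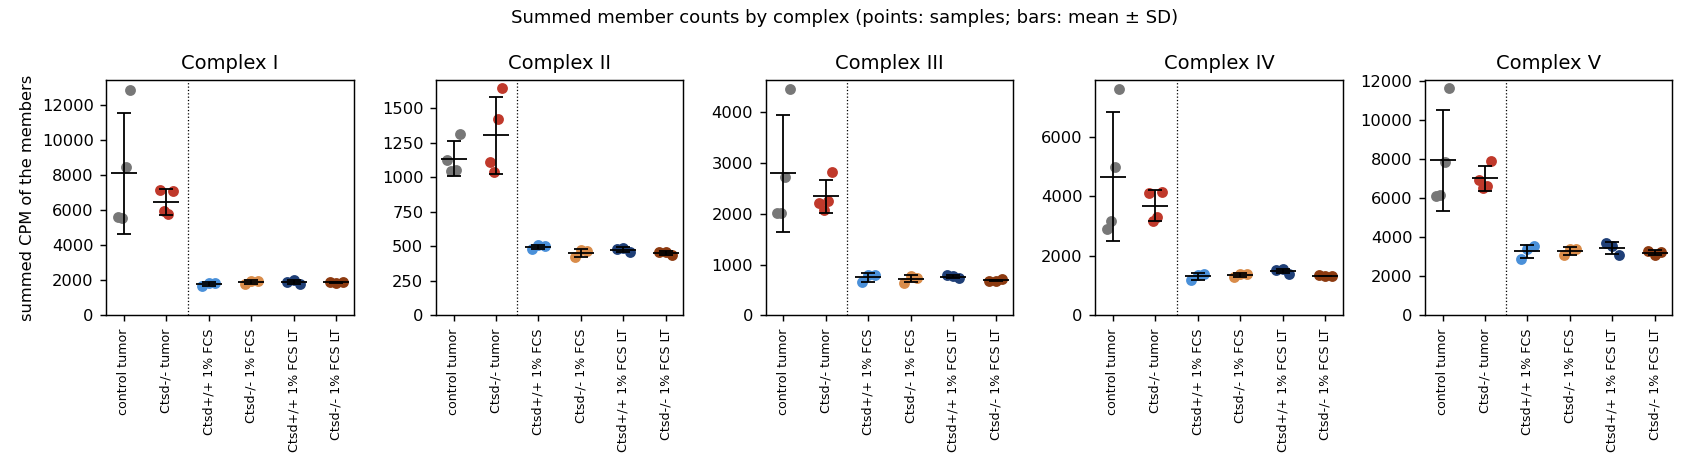
Summed CPM of the members of complexes I to V in each of the 20 samples (points) with the group mean and SD. Control tumors range from 17776 to 37917 CPM over all complexes, the cell samples from 6920 to 8423 CPM.

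Per kb of exon, the order of levels was led by complex V and IV subunits in cells. Atp5b, the catalytic beta subunit of the ATP synthase, came first in all 4 cell groups, with 299 ± 39.7 CPM per kb in Ctsd+/+ cells in 1% FCS (SD, n = 3). Cox6a1 (236 ± 16.4), Cox8a (226 ± 14.8), Atp5a1 (215 ± 18.9) and Cox4i1 (199.6 ± 14.3 CPM per kb), which followed, were each within the SD of their neighbor. In Ctsd-deficient tumors Cox6a1 led with 1069 ± 168 CPM per kb, and was further above the next gene, Cox8a with 559.6 ± 102 CPM per kb, than either SD (n = 4). Cox8a, Cox6b1 (551 ± 68.1) and Cox4i1 (516 ± 79.6 CPM per kb) did not differ beyond their spread.

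Members also varied little between the culture groups. The ratio of the highest to the lowest of the 4 cell group means had a median of 1.31 over the 77 members, against 1.68 over 12636 genes above 1 CPM. It stayed under 1.5 for 59 members (76.6%, against 37.6% of those genes) and was over 2 for 3 members (3.90%, against 36.6%). These shares are a description, since the genes of the background span other lengths and levels.

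The promoters of the members were searched on both strands for letters bound by known regulators of respiratory genes. The search ran from 250 bases before to 50 bases after each RefSeq start (GRCm38.p6), where 68 members had an entry. The nuclear respiratory factor NRF1 motif (GCGCA, any base, GCGC) was found for 17 of them (25%), against 5.19% of 27025 genes. An ETS motif bound by GABP (ACCGGAAG) was found for 6 (8.82%, against 2.60%) and a YY1 motif (AAGATGGCG) for 7 (10.3%, against 1.64%). These are matches of letters and not measured binding, most members had no match to a given motif, and the background was not limited to expressed genes. Members not printed here, such as Atp5g2, Atp5k and Ndufa11, also had matches, and a link between motif and level was not tested. The following stretches of 30 bases, in the direction of the gene with the motif in capitals (on the other strand, as the reverse complement, where so named), belong to members whose levels differed in cells and are described in the paragraphs on cells.
Sdha, chr13:74350276-74350305, minus strand, 45 bases before the start: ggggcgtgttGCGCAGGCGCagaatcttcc
Sdha, chr13:74350319-74350348, minus strand, 88 bases before the start: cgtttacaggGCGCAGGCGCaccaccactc
Ndufs5, chr4:123718265-123718294, minus strand, 88 bases before the start: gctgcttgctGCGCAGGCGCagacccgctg
Atp5h, chr11:115420041-115420070, minus strand, 131 bases before the start: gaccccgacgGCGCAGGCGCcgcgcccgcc
Ndufb6 (ETS, other strand), chr4:40279635-40279664, minus strand, 224 bases before the start: tcgtccttgttCTTCCGGTcccctccccta
Atp5c1, chr2:10080433-10080462, minus strand, 7 bases before the start: cgcctgagctcccGCGCACGCGCactgagt
Ndufa8 (other strand), chr2:36049349-36049378, minus strand, 20 bases before the start: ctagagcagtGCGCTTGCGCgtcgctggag
Ndufs6 (other strand), chr13:73328483-73328512, minus strand, 6 bases before the start: ccgccgactgctgtGCGCCTGCGCcggcac

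The first comparison asked whether loss of epithelial Ctsd changed the respiratory genes of tumors at 18 weeks. At the threshold used for tumors, an unadjusted p under 0.1, 15 of 82 members were called, 4 higher and 11 lower in Ctsd-deficient tumors, while 16.7% of all 18617 genes tested were called (8.44% higher and 8.27% lower). The share of members called was thus close to that of all genes. No member passed an adjusted p of 0.05 in edgeR, which 0.00537% of all genes passed, and 3 had an unadjusted p under 0.05. The fitted log2 fold change (FC) was negative for 64 members and positive for 18, with a median of -0.32, against 0.00070 over all genes. CPM of the 2 groups overlapped for each of the 15 called members.

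Negative values were found in all 5 complexes. Medians were -0.34 over the 30 accessory and 0.11 over the 7 core subunits of complex I, -0.33 over complex III, -0.37 over complex IV and -0.40 over complex V, and 0.09 over the 4 subunits of complex II. Atp5e, the epsilon subunit in the central stalk of the ATP synthase, had 205, 201, 511 and 782 CPM in control tumors 1 to 4 and 268, 185, 172 and 226 CPM in Ctsd-deficient tumors. Control tumors 3 and 4 were high, and the other 6 tumors shared 1 range. Its log2 FC was -0.997 ± 0.43 (SE, edgeR unadjusted p = 0.0408, adjusted p = 0.555). Atp5l, subunit g of the membrane part, had 73.7, 75.1, 185 and 238 CPM in controls and 86.0, 68.2, 71.1 and 79.6 CPM in Ctsd-deficient tumors, with the same 2 libraries high (log2 FC -0.91 ± 0.37, unadjusted p = 0.0347 in edgeR). Atp5e and Atp5l were singled out after their values were seen, as the lowest p among the lower calls.

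Uqcrh, the hinge protein of complex III, Cox7b of complex IV and Ndufa4 repeated this arrangement. Uqcrh had 249, 278, 487 and 813 CPM in controls and 288, 234, 232 and 299.9 CPM in Ctsd-deficient tumors (log2 FC -0.79, edgeR unadjusted p = 0.0508). Ndufa4 had 339.6, 363, 936 and 1420.3 CPM in controls and 709.7, 349, 346 and 416 CPM in Ctsd-deficient tumors, and was not called. Ctsd-deficient tumor 1 lay above the other 3 of its group, between the control tumors. The other lower calls were Atp5mpl, Ndufb4, Ndufc2, Ndufa7, Uqcr10, Atp5h and Cox7a2l, with log2 FC from -0.82 to -0.63.

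The lower calls rested on these 2 control libraries. The members' summed level was 17776, 17974, 25066 and 37917 CPM in control tumors 1 to 4 and 21557, 18790, 19408 and 23634 CPM in Ctsd-deficient tumors 1 to 4. Without control tumor 4 the median log2 FC of the members was -0.0025 and no member was called lower, and without control tumors 3 and 4, an alternative chosen after seeing the data, it was 0.25 with 6 called higher and 0 lower. Control tumor 4 was also high for short genes as such. Over the 93 protein-coding genes of at most 700 nt its median log2 deviation from the mean of the tumors was 0.95, and over 7430 genes longer than 4000 nt it was -0.33. Members deviated in it by 0.78 to 1.05 in each of 6 length classes, including the 10 members longer than 4000 nt. Members that are long by summed exons can have short transcripts, so that these classes cannot tell transcript length apart from membership. An offset for the trend with summed exon length in every library has the same limit. With it the median log2 FC of the members was -0.11, with 7 called higher and 4 lower.

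**Figure D2:**
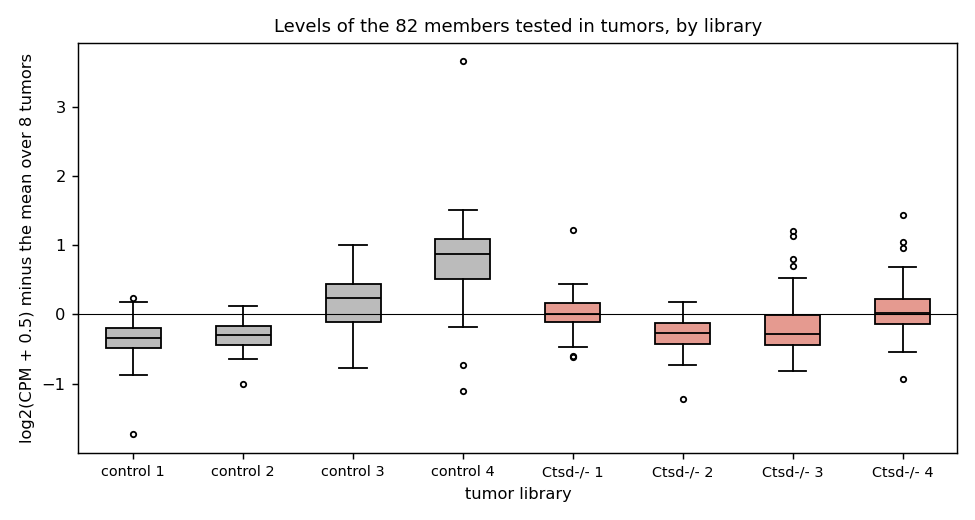
Levels of the 82 members tested in tumors, as log2(CPM + 0.5) minus the mean over the 8 tumors, with 1 box per tumor library. Control tumor 4 has the highest median.

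The 4 higher calls fell in complexes I and II. Sdha, the flavoprotein of complex II that oxidizes succinate, had 368, 316, 187 and 145 CPM in control tumors and 241, 337, 546 and 642 CPM in Ctsd-deficient tumors. The 2 highest were Ctsd-deficient tumors 3 and 4 and the 2 lowest were control tumors 3 and 4, and the groups overlapped (log2 FC 0.80 ± 0.38, edgeR unadjusted p = 0.0618, adjusted p = 0.569). Ndufs1, an iron-sulfur subunit of the NADH-oxidizing module of complex I, had 73.5, 70.2, 54.8 and 75.9 CPM in controls and 66.7, 76.8, 115 and 128 CPM in Ctsd-deficient tumors (log2 FC 0.50). Ndufa10, an accessory subunit of the same complex, had 118 to 147 CPM in controls and 129.5, 153, 205 and 229.6 CPM in Ctsd-deficient tumors (log2 FC 0.42). Ndufa4l2, a hypoxia-induced relative of Ndufa4, had 7.40, 6.98, 4.28 and 4.44 CPM in controls and 4.88, 8.38, 18.2 and 15.4 CPM in Ctsd-deficient tumors (log2 FC 1.02 ± 0.41, edgeR unadjusted p = 0.0316, adjusted p = 0.545). In all 4 genes Ctsd-deficient tumors 3 and 4 were above every control tumor, and Ctsd-deficient tumor 1 lay below the highest control tumor.

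These 2 tumors were also highest in adipocyte, brown adipocyte, endothelial and basal epithelial markers. They were not highest in fibroblast, macrophage, T cell or skeletal muscle markers. Ctsd-deficient tumor 4 was the lowest of all tumors in macrophage and T cell markers (765 and 14.95 CPM). The summed level of 9 adipocyte markers, none at the floor of 3 counts, was 885 to 5970.5 CPM in controls and 8755, 4050, 12786 and 26554 CPM in Ctsd-deficient tumors 1 to 4. The summed level of 7 brown adipocyte markers was 10.9 to 21.7 CPM in controls and 18.6, 53.9, 140.1 and 171.9 CPM in Ctsd-deficient tumors, with Cpt1b at 3 counts or fewer. Summed over 5 endothelial markers, of which 4 were called higher, Ctsd-deficient tumors 3 and 4 had 234 and 224 CPM, against at most 94.4 CPM in the other 6, and summed over 4 basal epithelial markers they had 837 and 477 CPM, against at most 414 CPM. The part of the endothelial and basal markers in the members' values was not tested. With the brown adipocyte level as a covariate, chosen after seeing the data, log2 FC of Sdha, Ndufs1 and Ndufa4l2 were -0.37, -0.42 and -0.68. With the adipocyte level in its place the direction turned for Ndufs1, and not for Sdha or Ndufa4l2. Brown adipocyte markers had a median log2 FC of 3.10 between the groups. This level largely follows genotype, so that the fit cannot separate it from genotype, and its part in the calls was not tested. In bulk tumors fewer cells of a type and less RNA per cell cannot be told apart.

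Tissue-restricted isoforms separated single tumors. Cox6a2, the heart and skeletal muscle form of Cox6a1, had 0.21, 0.42, 0.43 and 16.0 CPM in control tumors and 2.54, 0.061, 0.24 and 0.18 CPM in Ctsd-deficient tumors. Control tumor 4 and Ctsd-deficient tumor 1 were high, and these were also the tumors with the most skeletal muscle marker RNA, 1116 and 267 CPM summed over 10 markers against at most 66.6 CPM in the others. Cox8b, the form of Cox8a found in muscle and brown fat, had 2.97, 5.20, 12.0 and 16.4 CPM in controls and 9.48, 8.99, 24.6 and 30.5 CPM in Ctsd-deficient tumors. Its groups overlapped and it was not called (edgeR unadjusted p = 0.104). In cells Cox8b had no count in any sample, which allows at most 3 counts of at least 33622831 per sample, and Cox6a2 had at most 5 counts. The broadly expressed Cox6a1 and Cox8a were at 569 to 1124 CPM and 246 to 436 CPM in the same tumors.

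Other mitochondrial gene lists did not all share the direction of the members. The mitochondrial ribosome had 17 of 77 genes called lower and 0 higher (22.1% called, against 16.7% of all genes), with a median log2 FC of -0.37. TCA cycle enzymes had 7 of 18 called higher and 0 lower, led by Pcx, the pyruvate carboxylase (2.95), and Dlat of the pyruvate dehydrogenase complex (0.99). Of 10 mitochondrially encoded subunits tested, 4 were called higher (mt-Nd2, mt-Nd4, mt-Nd5 and mt-Nd6, log2 FC 0.71 to 0.84) and 0 lower. Among 21 regulators of mitochondrial biogenesis 3 were called higher, including Ppargc1a (1.33) and Ppargc1b (1.14), coactivators that induce respiratory genes. Ucp1, the uncoupling protein of brown fat, was called higher at 6.17. None of these genes passed an adjusted p of 0.05. The summed level of TCA cycle enzymes was highest in Ctsd-deficient tumors 3 and 4, with 5387 and 6253 CPM against 2672 to 3568 CPM in the other 6, the same tumors that were highest in adipocyte, endothelial and basal markers, whose part in these values was not tested.

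**Figure D3:**
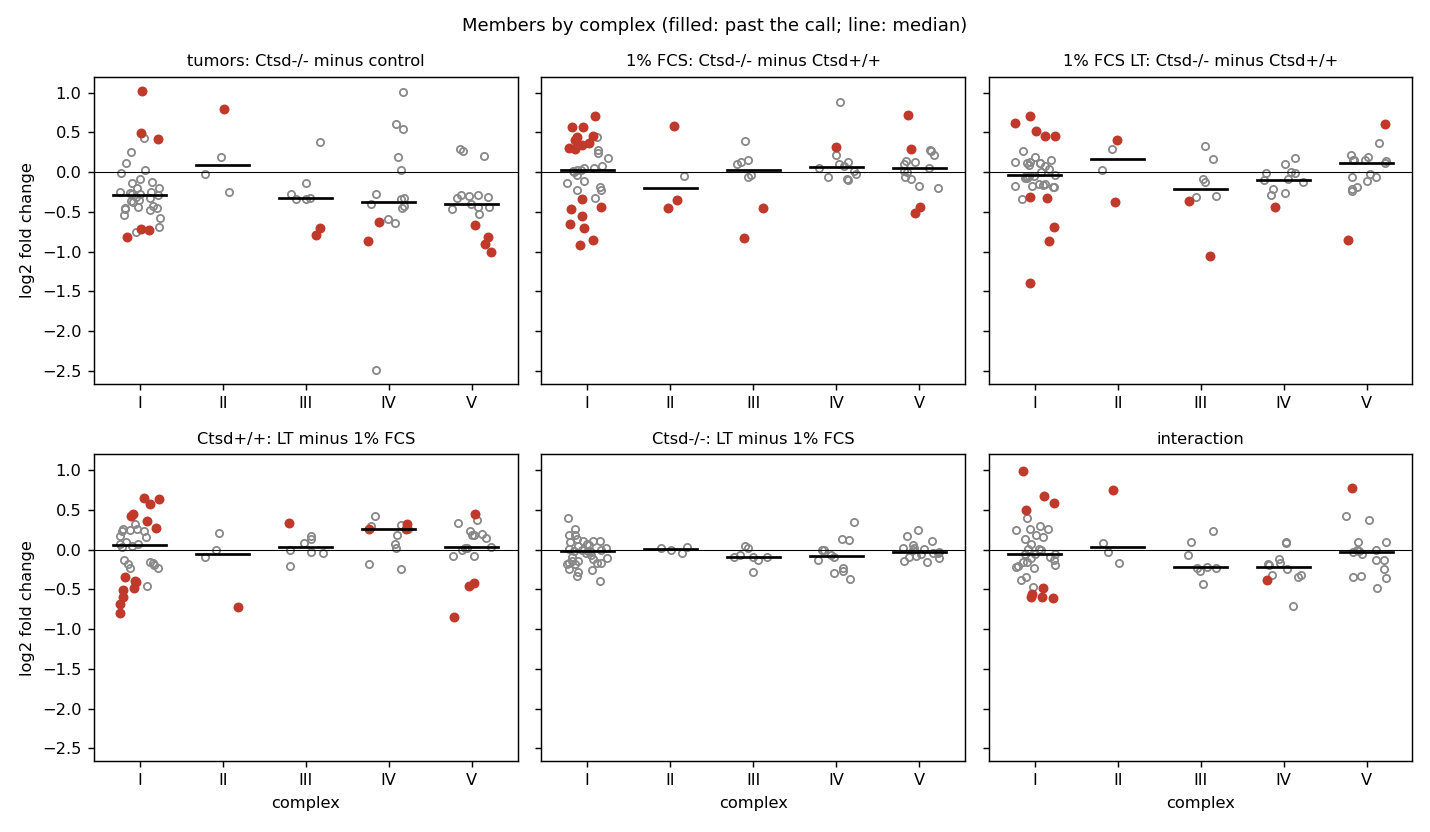
Log2 FC of each member by complex in the 6 comparisons, with called members marked and the median of each complex as a bar. In tumors 64 of 82 points lie below 0, in Ctsd-/- cells over time all points lie between -0.39 and 0.39.

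The second comparison asked how Ctsd-/- and Ctsd+/+ cells differed after 10 days in 1% FCS. Here 28 of 77 members were called at an adjusted p under 0.05, 14 higher and 14 lower in Ctsd-/- cells, while 48.5% of 15178 genes were called (23.5% higher and 25.1% lower). The median log2 FC of the members was 0.03, against 0.0002 over all genes. No called member passed an absolute log2 FC of 1, which 25% of all genes did together with the adjusted p. Complex I, the largest list, held 18 of the 28 calls, 10 higher and 8 lower among 36 subunits. This is 50%, close to the share of all genes. Complex IV held 1 among 12 (8.33%).

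The third comparison made the same contrast after 12 weeks. There, 17 of 77 members were called, 7 higher and 10 lower, while 39.6% of all genes were called (20.5% higher and 19.1% lower). The median log2 FC was -0.05, against 0.01 over all genes. Ndufa4 and Uqcrh were the 2 members past an absolute log2 FC of 1, both lower, against 19.4% of all genes in either direction and 10.1% lower. Of the 28 and 17 called members 10 were shared, which is 35.7% of the former and 58.8% of the latter, and each had the same sign at both times. The 2 comparisons use different samples but 1 fit and the same 2 lines. Calls shared between them were not counted over all genes, so that the overlap is not given as a trait of the members.

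**Figure D4:**
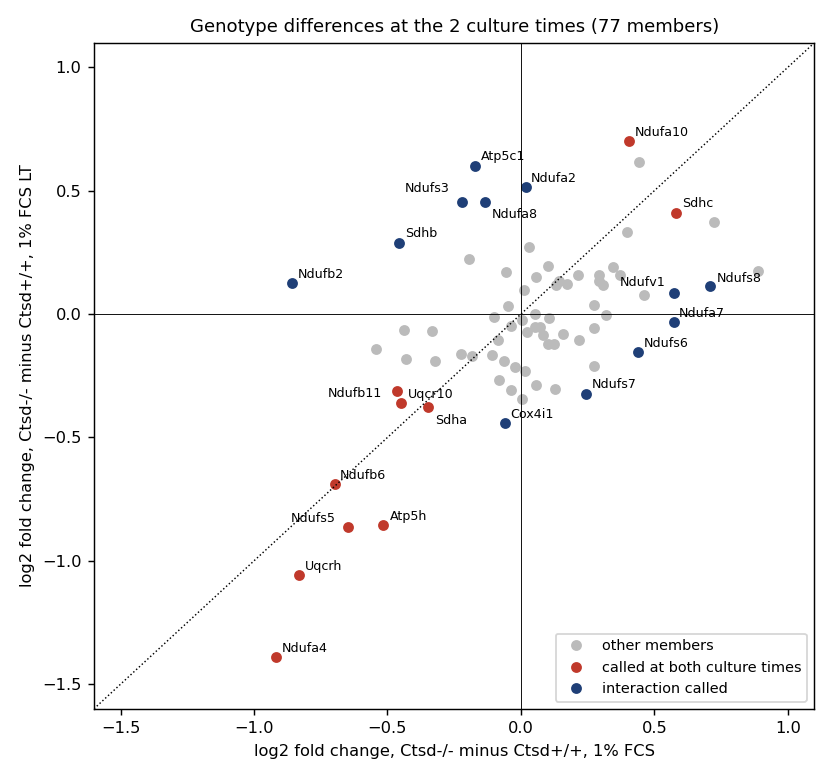
Log2 FC of Ctsd-/- against Ctsd+/+ cells for 77 members, in 1% FCS (x axis) and 1% FCS LT (y axis). Ndufa4 is lowest at both times, and Ndufa10 and Sdhc are the 2 members called higher at both.

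Ndufa4 (chr6:11900292-11907497), a complex IV protein that also supports its assembly, differed most. It had 78.7, 69.2 and 70.9 CPM in Ctsd+/+ and 31.5, 42.3 and 42.0 CPM in Ctsd-/- cells in 1% FCS. After 12 weeks it had 128, 128 and 88.2 against 51.2, 43.3 and 36.5 CPM. Every Ctsd-/- sample lay below every Ctsd+/+ sample, at both times. Separation of the groups was a condition for naming genes by their rank, here and in the paragraphs below, and is no separate result. Log2 FC were -0.92 ± 0.17 (SE, adjusted p = 0.00107) and -1.39 ± 0.18 (adjusted p = 8.65e-05), which is 1.89-fold and 2.62-fold lower.

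Uqcrh (chr4:116066965-116075071) was the complex III gene with the lowest log2 FC. Its levels were 91.7, 109 and 94.0 CPM in Ctsd+/+ and 52.9, 56.9 and 56.0 CPM in Ctsd-/- cells in 1% FCS, and 111, 105 and 107 against 50.5, 47.6 and 56.9 CPM in 1% FCS LT. The highest Ctsd-/- sample lay far below the lowest Ctsd+/+ sample at both times, with log2 FC of -0.83 ± 0.10 and -1.06 ± 0.10 (SE, adjusted p = 3.39e-05 and 8.89e-06). Uqcr10, a small subunit of the same complex, was lower by less (log2 FC -0.45 and -0.36). Core proteins of complex III such as Uqcrc1 were not called, with log2 FC of -0.06 ± 0.13 and 0.17 ± 0.13.

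Ndufs5, Ndufb6 and Ndufb11, accessory subunits of complex I, were also lower at both times. Ndufs5 (chr4:123712710-123718202), whose NRF1 match is shown above, had 21.1, 18.7 and 20.6 against 12.0, 12.9 and 13.7 CPM in 1% FCS, and 19.7, 22.7 and 19.3 against 11.1, 10.9 and 11.9 CPM in 1% FCS LT. Ctsd-/- samples did not overlap with Ctsd+/+ samples, and log2 FC were -0.65 and -0.86 (adjusted p = 0.000692 and 0.000131). Log2 FC of Ndufb6 were -0.70 and -0.69, and those of Ndufb11 were -0.46 and -0.31.

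In complex V, Atp5h (chr11:115415689-115419962), subunit d of the peripheral stalk, had 124, 132 and 139.5 CPM in Ctsd+/+ and 82.8, 99.0 and 94.7 CPM in Ctsd-/- cells in 1% FCS. At 12 weeks it had 178, 195 and 166 against 96.1, 96.3 and 105 CPM, so that the Ctsd+/+ samples were higher than before and the Ctsd-/- samples similar (log2 FC -0.52 and -0.86, adjusted p = 0.00116 and 4.68e-05). The catalytic subunits Atp5a1 and Atp5b, the members with the highest CPM before correction for length, were not called at either time. Log2 FC of Atp5a1 were 0.0031 ± 0.11 and -0.02 ± 0.11, and those of Atp5b were 0.02 ± 0.13 and -0.23 ± 0.13 (SE).

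The subunits of complex II went in opposite directions. Sdha (chr13:74322254-74350280), which holds the flavin, had 286, 282 and 269.7 CPM in Ctsd+/+ and 223, 214 and 222 CPM in Ctsd-/- cells in 1% FCS, and 286, 272 and 273 against 223, 220.0 and 196 CPM in 1% FCS LT. Sdhc (chr1:171127165-171150603), a membrane anchor, had 67.7, 75.8 and 74.1 against 96.6, 119 and 110.5 CPM, and 77.4, 93.6 and 80.4 against 112, 111 and 111 CPM. In Ctsd-/- cells Sdha was below and Sdhc above every Ctsd+/+ sample of the same culture time. Log2 FC were -0.35 and -0.38 for Sdha (adjusted p = 0.00467 and 0.00362) and 0.58 and 0.41 for Sdhc (adjusted p = 0.000672 and 0.00776). Ndufa10 (chr1:92439010-92473860) was the other member higher at both times, with 76.1, 88.9 and 92.8 against 108, 118 and 116 CPM in 1% FCS and 64.6, 83.8 and 77.8 against 125, 119.6 and 123 CPM in 1% FCS LT (log2 FC 0.41 and 0.70). In tumors Sdha and Ndufa10 had positive log2 FC, as given above, so that the sign of Sdha differed between tumors and cells.

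**Figure D5:**
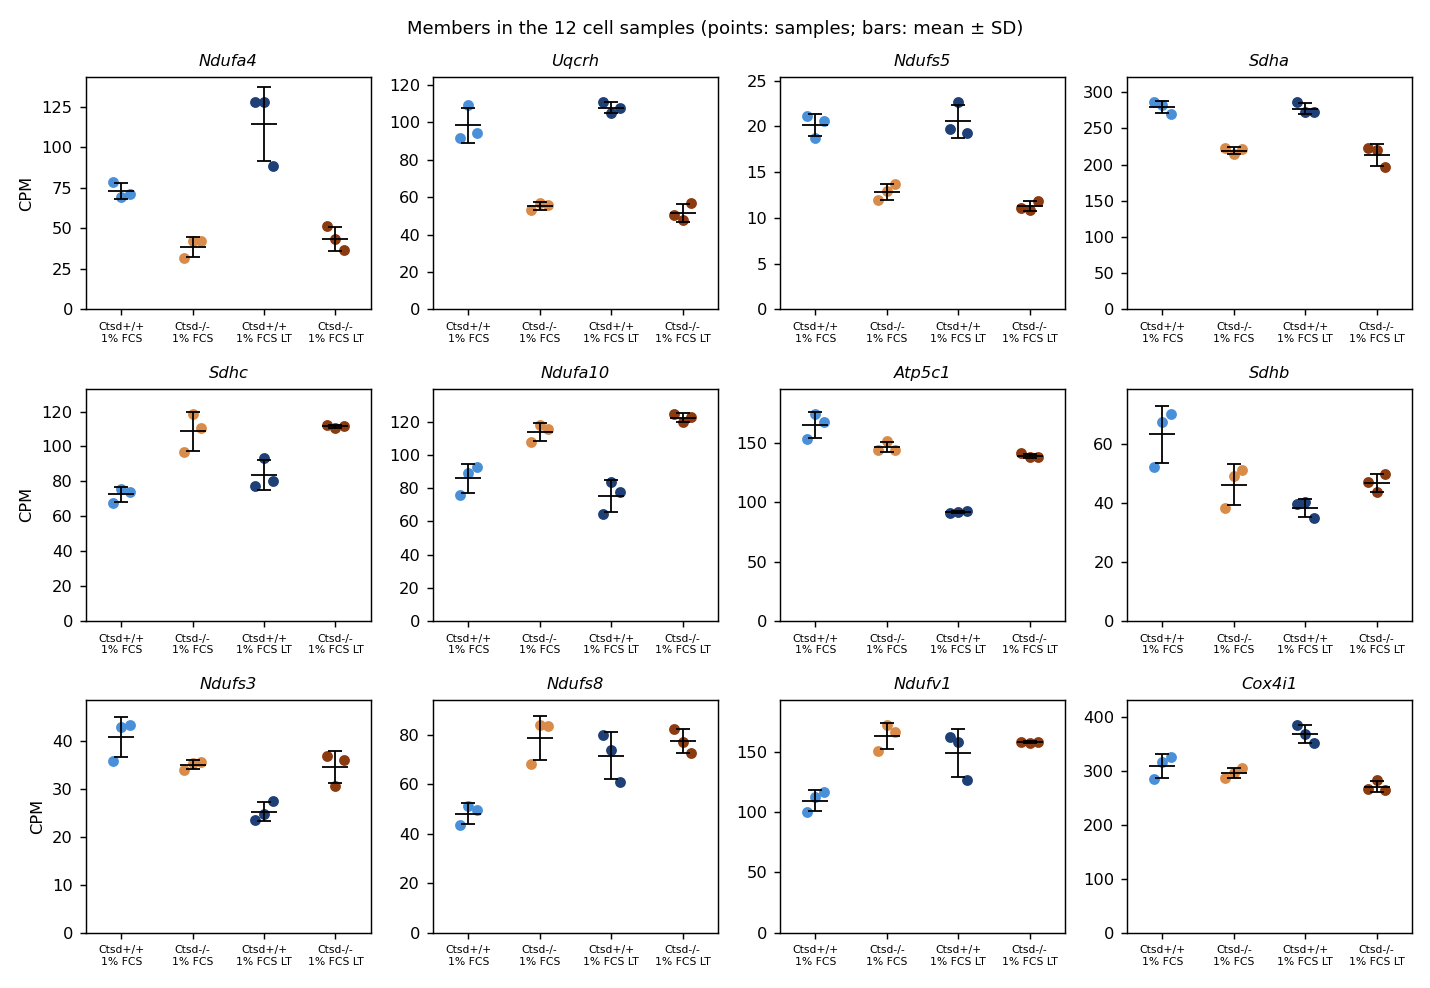
CPM of 12 members in the 12 cell samples, by group, with the group mean. Ndufa4, Uqcrh, Ndufs5 and Sdha are lower and Sdhc and Ndufa10 higher in Ctsd-/- cells at both times, whereas Ndufs8 and Ndufv1 are lowest in Ctsd+/+ cells in 1% FCS and Atp5c1 and Ndufs3 are lowest in Ctsd+/+ cells in 1% FCS LT.

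Other members were called in 1 of the 2 genotype comparisons. Among core subunits of the peripheral arm of complex I, Ndufs8 had 43.4, 51.4 and 49.7 CPM in Ctsd+/+ and 68.3, 84.0 and 83.7 CPM in Ctsd-/- cells in 1% FCS. Its groups overlapped in 1% FCS LT, with 79.8, 73.8 and 61.1 against 82.5, 77.04 and 72.8 CPM. Ndufv1, the flavin subunit that takes electrons from NADH, had 100.2, 112 and 117 against 151, 172 and 167 CPM, and then 163, 158 and 127 against 159, 158 and 159 CPM. For both genes the Ctsd+/+ samples in 1% FCS were the low ones among the 4 groups, and log2 FC in 1% FCS were 0.71 and 0.57 (adjusted p = 0.000634 and 0.00106). Ndufa7 behaved alike (0.57, adjusted p = 0.000702), while Ndufv2, the partner of Ndufv1 in the same module, was lower (-0.54, adjusted p = 0.000886).

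Of the 7 members called higher in Ctsd-/- cells after 12 weeks, Sdhc and Ndufa10 were described above. Atp5c1 (chr2:10056016-10080510), the gamma subunit that forms the rotor shaft of the ATP synthase, had 91.1, 91.3 and 92.4 CPM in Ctsd+/+ and 141, 138 and 138 CPM in Ctsd-/- cells, a log2 FC of 0.60 ± 0.08 (adjusted p = 0.000104). In 1% FCS it had had 153, 175 and 167 against 144, 151 and 144 CPM, and was not called. Ndufs3, a core subunit of complex I, had 23.5, 24.7 and 27.4 against 36.9, 30.7 and 36.0 CPM in 1% FCS LT (log2 FC 0.45, adjusted p = 0.00741), and Ndufa8, an accessory subunit, 36.5, 37.5 and 40.1 against 54.8, 50.1 and 51.7 CPM (log2 FC 0.46). In the other direction Cox4i1, the largest nuclear subunit of complex IV, had 385, 368 and 353 against 266, 283 and 264 CPM (log2 FC -0.44 ± 0.09, adjusted p = 0.00198). None of the groups of these 4 genes overlapped in 1% FCS LT, which was a condition for naming Atp5c1 and Cox4i1 here.

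Long-term culture itself was compared within each line. In Ctsd-/- cells 0 of 77 members were called between 10 days and 12 weeks by edgeR at an adjusted p under 0.05, while 2.38% of all genes were called (1.57% higher and 0.81% lower). At an unadjusted p under 0.05 there were 9 members, against 18% of all genes, limma-voom called 0 and DESeq2 called 2 higher and 2 lower. The lowest p belonged to Ndufb11 (42.7 to 56.0 CPM on average, log2 FC 0.39 ± 0.11, adjusted p = 0.0813) and Cox6a1 (155 to 197 CPM, log2 FC 0.35 ± 0.10, adjusted p = 0.0826). Over all 77 members the median log2 FC was -0.04, and the median absolute log2 FC was 0.10.

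In Ctsd+/+ cells 24 of 77 members were called between the same times, 12 higher and 12 lower in 1% FCS LT, while 46.4% of all genes were called (23% higher and 23.4% lower). The median log2 FC was 0.07 and the median absolute log2 FC was 0.23, and no called member passed an absolute log2 FC of 1, against 23.4% of all genes. Atp5c1 fell from 153, 175 and 167 CPM to 91.1, 91.3 and 92.4 CPM (log2 FC -0.85 ± 0.08, adjusted p = 6.15e-06). Sdhb (chr4:140961203-140979193), the iron-sulfur subunit of complex II, fell from 52.3, 67.3 and 70.2 CPM to 39.8, 40.3 and 34.8 CPM (log2 FC -0.73 ± 0.14, adjusted p = 0.00131). Ndufs3 (chr2:90894634-90904827), Ndufa8 and Ndufb2 fell by 0.69, 0.60 and 0.80 on the log2 scale. The groups did not overlap for any of these 5 genes, which was a condition for naming all of them but Ndufa8.

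Core subunits of complex I were split in these cells, with 4 of 7 called higher and 2 lower (85.7% called, against 46.4% of all genes). Ndufs7, an iron-sulfur subunit near the quinone site, rose from 31.7, 36.4 and 37.8 CPM to 57.3, 54.0 and 53.0 CPM (log2 FC 0.63 ± 0.10, adjusted p = 0.00041). Ndufs8 (chr19:3908863-3912774) rose by 0.57 and Ndufv1 (chr19:4007384-4012806) by 0.44, and Ndufs1 by 0.27, while Ndufs3 and Ndufv2 fell. Complex IV had 3 of 12 called higher (25%, close to the 23% of all genes called higher). These were Cox8a, Cox6a1 and Cox4i1 (chr8:120668222-120674207), with log2 FC of 0.32, 0.26 and 0.25. With the length offset, chosen after seeing the data, none of the 12 was called higher and 3 were called lower, and the 3 genes kept their call in 16, 10 and 14 of 23 alternatives. Ndufa4, whose protein belongs with them, rose by 0.65 ± 0.17.

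The interaction asked whether the genotype difference itself differed between 10 days and 12 weeks. It was called for 12 of 77 members, 6 positive and 6 negative, while 30.3% of all genes were called (16.1% and 14.1%). The median over members was -0.11, against -0.0035 over all genes, and no call passed an absolute value of 1, against 19.1% of all genes. Positive values, with Ctsd-/- relatively higher at 12 weeks, belonged to Ndufb2 (0.98), Atp5c1 (0.77 ± 0.11, adjusted p = 0.000331), Sdhb (0.74), Ndufs3 (0.67), Ndufa8 (0.59) and Ndufa2 (0.50). Negative values belonged to Ndufa7 (-0.60 ± 0.14, adjusted p = 0.00811), Ndufs8 (-0.59), Ndufs6 (-0.59), Ndufs7 (-0.57), Ndufv1 (-0.49) and Cox4i1 (-0.38). Of the 10 members called at both times, none was among these 12.

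For Sdhb the order of the groups turned between the times. In 1% FCS the Ctsd-/- samples were lower, with 38.2, 49.0 and 51.2 CPM against 52.3 CPM or more in Ctsd+/+ cells, and in 1% FCS LT they were higher, with 47.1, 43.6 and 49.6 CPM against at most 40.3 CPM. The genotype difference was called in 1% FCS (log2 FC -0.46, adjusted p = 0.0179) but not in 1% FCS LT (0.29, adjusted p = 0.123), and the interaction had an adjusted p of 0.0145. Ndufb2, a low-level accessory subunit of complex I with 5.16, 5.25 and 5.18 CPM in Ctsd+/+ and 3.48, 2.22 and 2.90 CPM in Ctsd-/- cells in 1% FCS, had between 2.90 and 3.40 CPM in the 6 samples of 1% FCS LT. Its exons overlap another gene on the same strand, and its values are uncertain to that extent. Since the interaction and the long-term difference of Ctsd+/+ cells share samples, their values are given side by side and not as separate support.

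The split of calls between directions moved with the scaling of libraries. With library totals in place of TMM, 22 members were called higher and 12 lower in Ctsd-/- cells in 1% FCS, while all genes went from 3564 higher and 3803 lower to 4189 and 3271. In Ctsd+/+ cells over time 21 members were called higher and 9 lower, while all genes went from 3494 and 3547 to 3914 and 3133. With the offset for summed exon length, chosen after seeing the data, these splits were 8 and 25, and 7 and 23. The interaction then had 13 positive and 2 negative calls. In 1% FCS LT the split of 7 and 10 was the same with the length offset and became 8 and 7 with library totals. Ndufa4, Uqcrh, Sdha, Sdhc and Atp5h kept their direction and call in both genotype comparisons under all 23 alternatives run for each.

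Other genes of the pathway were read from lists in the same way. The list of mitochondrially encoded subunits holds 13 genes. In each cell group 2 to 5 of these had 3 counts or fewer in every sample, mt-Atp8 and mt-Nd3 in all 4 groups. In Ctsd-/- cells in 1% FCS mt-Co2 and mt-Co3 were among them, so that the sums rest on part of the list. In 1% FCS LT the summed level of mitochondrially encoded subunits was 31609 to 43372 CPM in Ctsd+/+ and 19729 to 22779 CPM in Ctsd-/- cells. In 1% FCS it was 17959 to 24358 and 13870 to 24157 CPM, which overlap. Of these genes, 3 of 7 tested were called lower in Ctsd-/- cells in 1% FCS LT, mt-Nd5 (-1.01), mt-Co1 (-0.96) and mt-Nd4 (-0.86) (42.9%, against 39.6% of all genes), 5 were called higher over time in Ctsd+/+ cells (71.4%, against 46.4%), and 0 were called between genotypes in 1% FCS. The nuclear partners in 1% FCS LT had a median log2 FC of -0.05, as given above.

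Assembly factors of complex I, which build the enzyme but are not part of it, had 6 of 16 called lower and 1 higher in Ctsd-/- cells in 1% FCS (43.8% called, against 48.5% of all genes), with Ndufaf6 at -0.78 and Timmdc1 at 0.80. They had 4 lower and 4 higher in 1% FCS LT (50%, against 39.6% of all genes). Assembly factors of complexes II to V had 7 of 33 called higher and 1 lower in 1% FCS (24.2% called), with Lyrm7 at 0.90 and Cox15, which makes heme A for complex IV, at 0.88. The same list had 5 higher and 4 lower in 1% FCS LT (27.3%). Electron carriers and coenzyme Q enzymes had 3 of 18 higher and 5 lower in 1% FCS, and 4 higher and 4 lower in 1% FCS LT (44.4% called at each time), where Coq7 was at 1.18.

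Among TCA cycle enzymes 8 of 18 were called higher and 3 lower in Ctsd-/- cells in 1% FCS (61.1% called, against 48.5% of all genes), and 2 higher and 5 lower in 1% FCS LT (38.9%, against 39.6%). Pcx, which feeds the cycle from pyruvate, rose by 3.25 over time in Ctsd+/+ cells and was lower by a log2 FC of -1.998 in Ctsd-/- cells in 1% FCS LT, and Sucla2 was lower at both times (-0.82 and -0.80). The mitochondrial ribosome had 16 of 77 higher and 12 lower in 1% FCS (36.4%), and 13 higher and 14 lower in 1% FCS LT (35.1%). Of 20 regulators of biogenesis tested, 6 were called higher and 4 lower in 1% FCS (50%), and 5 higher and 1 lower in 1% FCS LT (30%). In 1% FCS, Esrra, an orphan nuclear receptor that drives respiratory genes, was at 1.05, while Ppargc1b was called lower, with a mean of 2.20 CPM in Ctsd+/+ cells and at most 3 counts in any Ctsd-/- sample. Carriers and uncoupling proteins had 2 of 7 higher in 1% FCS and 1 higher and 1 lower in 1% FCS LT (28.6% called at each time), where Ucp2 was at 2.85. In Ctsd-/- cells over time these lists had 0 calls, other than 1 regulator (Ppargc1b) and 1 ribosomal gene, both higher.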

How the data were processed

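RNA was sequenced from 8 tumors and 12 cell samples. The authors trimmed reads with Trimmomatic, mapped them to GRCm38 (mm10) with STAR. The deposited files hold raw counts for Ensembl genes in 3 forms (regardless of strand, on the strand of the gene and on the opposite strand), without normalization. The annotation release is not given in the sources used here. Symbols and exon lengths came from GENCODE M21. Counts regardless of strand were used for tumors and counts on the opposite strand for cells, in which at least 97.1% of stranded counts lay there. STAR sets aside reads with several positions and reads on overlapping genes (7.37% to 16.2% of a tumor, highest in control tumors 4 and 3, and 1.16% to 1.32% of a cell sample). Rows that name no gene held 14.8% to 32.7% of the reads and were left out. Sequencing codes in the labels hold 1 genotype each in tumors, so that code and genotype cannot be told apart there.

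Counts were fitted in R 4.3.3 with edgeR 4.0.16 (filterByExpr, TMM, two-sided quasi-likelihood F-test, Benjamini-Hochberg adjustment over all genes tested), with tumors alone and the 12 cell samples in 1 fit. The study states limma for these comparisons, which was run as limma-voom (limma 3.58.1), and DESeq2 1.42.0 was also run. Adjusted p-values are from edgeR. SE is the absolute log2 FC divided by the square root of F. Calls were an unadjusted p under 0.1 in tumors and an adjusted p under 0.05 in cells. Members, gene lists and alternatives were chosen with earlier results of these data known. The named genes were Ctsd, isoform pairs, catalytic subunits and, per comparison and complex, up to 2 members with the highest and 2 with the lowest log2 FC among called members with non-overlapping groups (without the overlap condition for the interaction), plus up to 2 genes per list. Members named outside this rule were chosen after their values were seen. The tests were run on simulated data, where 2% of genes changed by a log2 FC of 1 and 75% of those changed by 2 were recovered in tumors at an adjusted p under 0.05, and 61% and 100% in cells in 1% FCS. Of the simulated calls 1.28% were false in tumors and 9.04% in cells, above the threshold of 0.05 in the latter. Counts of replicates differed beyond sampling noise (chi-square per gene 16.5 to 616). The correlation of the deviations of same-numbered replicates was over 0.1 for all 3 pairs between Ctsd+/+ and Ctsd-/- cells in 1% FCS (0.362, 0.101 and 0.3), and for fewer pairs in the other comparisons. Replicate 1 of both genotypes in 1% FCS, and replicate 3 of both in 1% FCS LT, carry another sequencing code than the other replicates of their groups.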

Additional observations from a re-analysis of the deposited data

Results flagged for a closer look

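Among 62 groups of 4 tumors examined for a sample apart from the others, 4 values exceeded Dixon's critical value for groups of this size. Chance alone gives about 1 in 20 groups, which is close to what was found. The values are therefore not set apart from chance. Control tumor 4 was high for Cox6a1 (1124 CPM) and for its muscle form Cox6a2 (16.0 CPM). Control tumor 3 was low for Uqcrc1 (447.5 CPM), a core subunit of complex III. Ctsd-deficient tumor 1 was high for Cox6a2 (2.54 CPM).

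The change from 1% FCS to 1% FCS LT differed between Ctsd-/- and Ctsd+/+ cells for 12 members, by the interaction term of the edgeR fit at an adjusted p under 0.05. On the log2 scale, Ctsd-/- minus Ctsd+/+, the difference was 0.98 for Ndufb2, 0.77 for Atp5c1, 0.74 for Sdhb, 0.67 for Ndufs3, 0.59 for Ndufa8 and 0.50 for Ndufa2. It was -0.60 for Ndufa7, -0.59 for Ndufs8, -0.59 for Ndufs6, -0.57 for Ndufs7, -0.49 for Ndufv1 and -0.38 for Cox4i1. Atp5c1, Sdhb, Ndufs3 and Ndufa7 kept this call in each of the 22 alternatives run, whereas Ndufs8 kept it in 14, Ndufv1 in 12 and Cox4i1 in 10. In Ctsd-/- cells none of the 12 was called over time.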

How the results depend on the processing

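In tumors, 4 members were called higher and 11 lower. These calls were 8 and 7 with library totals, 1 and 1 with a replicate block (pairing by number, median -0.24) and 0 and 2 with the adipocyte covariate. They were 0 and 0 with the brown adipocyte covariate, 7 and 4 with the offset for summed exon length, and 6 and 0 without control tumors 3 and 4. The last 3 settings were chosen after seeing the data. Lower calls were 4 in limma-voom and 22 with the skeletal muscle covariate. The median of -0.32 was 0.25 without control tumors 3 and 4. Leaving out 1 tumor at a time gave 0 to 8 higher calls, 0 to 27 lower calls and medians of -0.46 to -0.0025. The direction turned for Cox7b without control tumors 3 and 4 (0.37), for Ndufs1 with the adipocyte covariate (-0.17), and for Ndufs1 (-0.42), Sdha (-0.37) and Ndufa4l2 (-0.68) with the brown adipocyte covariate. The adipocyte and brown adipocyte levels were themselves higher in Ctsd-deficient tumors, so that fits with them cannot fully separate these levels from genotype. The cause was not tested.

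In cells, higher and lower calls in 1% FCS (14 and 14) were 22 and 12 with library totals (median 0.13) and 8 and 25 with the length offset (median -0.11). Higher calls were 8 without the low count filter. Over time in Ctsd+/+ cells (12 and 12) they were 21 and 9 with library totals and 7 and 23 with the length offset (median -0.0493), with 6 higher without the filter and 6 with these groups fitted alone. The interaction (6 and 6) had 13 and 2 with the length offset (median 0.05). In Ctsd-/- cells over time (0 and 0) DESeq2 called 2 and 2, the length offset 1 higher, and groups fitted alone or samples within 1 sequencing code 1 lower. With an absolute log2 FC above 1 added, 0 and 0 remained in 1% FCS, in Ctsd+/+ cells over time and for the interaction, and 0 and 2 in 1% FCS LT. Leaving out 1 sample gave 7 to 18 higher and 13 to 16 lower in 1% FCS, 7 and 7 to 12 in 1% FCS LT, 0 and 0 to 1 in Ctsd-/- cells over time, 6 to 15 and 8 to 15 in Ctsd+/+ cells over time, and 5 to 8 and 3 to 9 for the interaction. Without Ctsd+/+ replicate 1 or Ctsd-/- replicate 3 in 1% FCS, 7 were called higher there.

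The replicate block gave 15 and 14 calls in 1% FCS, 13 and 13 in Ctsd+/+ cells over time and 5 and 6 for the interaction. It changed no call of a named member in 1% FCS. There the deviations of same-numbered replicates were correlated, and replicate 1 of both genotypes shares a sequencing code. In 1% FCS LT, where replicate 3 of both genotypes shares a sequencing code, the block gave 7 and 10, as without it. The labels number the replicates without saying that they are paired, so that pairing was not shown in any comparison. With at least 33622831 counts per library, depth limits the isoforms near 0, and the number of tumors and the 2 lines limit the rest.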
